A study of Mus musculus with 4 samples.

Results

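The adipocytes of inguinal white adipose tissue were compared after 3 days of cold with adipocytes of mice kept at room temperature, gene by gene and peak by peak. The nuclei were those that the deposited annotation labels Adipocyte or Beige, and they were summed per mouse. They numbered 1146 in the 3 cold mice (day3C) and 637 in the 3 mice at room temperature (day0RT), 1783 of the 7004 adipocyte nuclei and of the 32552 nuclei of all cell types in the series. The whole study profiled open chromatin in nuclei of this fat pad by single-nucleus ATAC-seq, in which the Tn5 transposase inserts adapters where DNA is accessible, over 7 groups of 3 mice. All animals were C57BL/6 males of 8 weeks. The day0RT mice stayed at 22 °C with no treatment, and the day3C mice were held at 6.5 °C for 3 days. Further cold mice were sampled on day 1 (day1C) and day 7 (day7C), and the day3CL mice received CL, an agonist of the beta 3 adrenergic receptor, at 1 mg/kg for 3 days at room temperature. The day0RT mice served as the control of every time point, so comparisons of several groups with them share these 3 mice.

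Adipocytes store triglyceride in a lipid droplet coated by perilipins and CIDE proteins, release it by lipolysis when noradrenaline raises cAMP, and rebuild fatty acids from citrate through ATP citrate lyase, acetyl-CoA carboxylase and fatty acid synthase. Cold drives sympathetic nerves of this depot, and part of its adipocytes become beige cells that express *Ucp1*, the proton channel of heat-producing mitochondria. In long cold exposure, fat burning and the synthesis of new fatty acids are known to run together in these cells.

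The 3 day0RT mice gave 196, 156 and 285 adipocyte nuclei and the 3 day3C mice 709, 228 and 209. Day3C mouse 1 stood apart, with 45.7% of its nuclei in the adipocyte clusters against 10.9% to 17.4% in the other 5 mice, and with 3321425 counts on genes against 282257 to 886740. The median counts per adipocyte nucleus averaged 1933 ± 698 in day0RT and 3110 ± 1076 in day3C (SD, n = 3 each). That difference of 1177 counts had an exact two-sided permutation p of 0.2, where 3 against 3 mice cannot go below 0.1. Of the 1146 day3C nuclei, 389 carried a barcode that a day1C or day7C mouse of the same number also had, and none shared a barcode with day0RT or day3CL. The second barcode index took 12 values in day0RT and 12 other values in the cold mice, so this index and the treatment cannot be told apart. Of 10 adipocyte markers, 8 were more accessible in adipocytes than in every other cell type, from 1.15-fold for *Pnpla2* to 15.9-fold for *Cidec*, a lipid droplet protein, while *Cebpa* (0.98) and *Gpd1* (0.87) were not. Of 10 beige markers, 6 were, while *Ppargc1a*, *Slc4a4*, *Ppargc1b* and *Pank1* stood at 0.55 to 0.78 of the highest other type. That type was the B cells for *Pank1* and the cluster the authors labelled vascular smooth muscle for the others. In that cluster, skeletal muscle markers summed to 2452.5 and mural cell markers to 386.3 per 1000000 counts. Its label is therefore not taken as an identity here. All 10 beige markers were more accessible in the beige than in the white cluster, from 1.50-fold for *Prdm16* to 16.3-fold for *Ucp1*. Since the clusters came from the same nuclei, these ratios are a description.

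Among 14417 genes tested, 123 rose and 113 fell in day3C adipocytes at an adjusted p under 0.05 in edgeR, 1.64% of all tested (0.853% up and 0.784% down). The accessibility of a gene was the sum over nuclei of the peaks in its body and the 2000 bases upstream. For the adipocyte sums it was scaled to 1000000 counts per mouse over the genes tested (CPM), with the total adjusted by the TMM factor of edgeR. The deposited values mark only whether a nucleus had reads in a peak, so counts per nucleus are numbers of such peaks. A lower sum cannot tell fewer nuclei open at a site from open nuclei in which no read was caught there. The 3 mice of one group all lay outside the range of the other group for 18.4% of tested genes, and 2075 genes (14.4%) had an unadjusted p under 0.05. The genes that rose included enzymes of fatty acid synthesis and elongation. Those that fell included *Adipoq*, proteins of the lipid droplet and 2 genes of the list of fatty acid uptake and binding. The count depended on the tool and on the nuclei taken. DESeq2 called 53 genes, and the 1000 to 4000 counts per nucleus range, chosen after depth was seen to differ, left 19 calls. Of the 213 called genes that could be tested there, 212 kept their sign. These nuclei are among those in which the genes were called, so the signs are no independent check. Without day3C mouse 1 there were 75 calls.

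**Figure D1:**
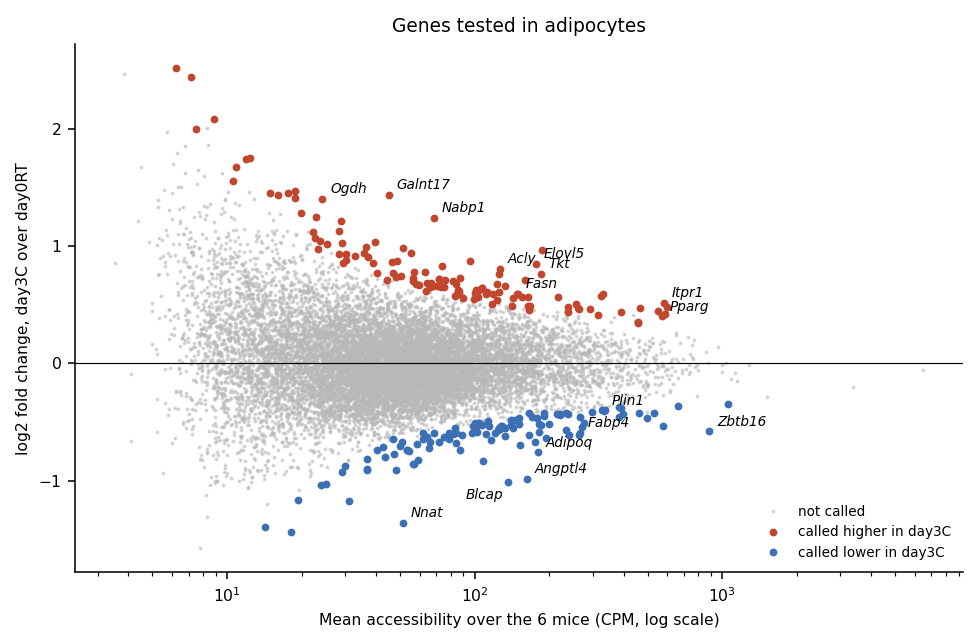
Each point is 1 of the 14417 tested genes, with its mean accessibility over the 6 mice in CPM on a log axis and the log2 fold change of day3C over day0RT on the vertical axis. Red points are the 123 genes called higher and blue points the 113 called lower, from *Galnt17* at 1.43 to *Nnat* at −1.36 among the labelled genes.

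Of 22 genes listed for de novo lipogenesis and elongation, 21 were tested (all but *Insig1*), 5 rose and none fell. Their median log2 fold change was 0.33, beside −0.01 over all genes tested, and 19 of the 21 were above 0. Of all genes tested, 0.853% rose and 0.784% fell. *Acly*, ATP citrate lyase, which makes cytosolic acetyl-CoA, lies at chr11:100476353-100528000 (GRCm38). It had 98.6, 82.5 and 96.1 CPM in the day0RT mice and 179, 179 and 127 CPM in the day3C mice. The groups did not overlap, and *Acly* rose 1.75-fold (log2 fold change 0.80, SE 0.20, adjusted p = 0.0152). *Fasn*, fatty acid synthase, went from 129, 108 and 123 CPM to 202, 187 and 151 CPM, again without overlap (log2 fold change 0.59, SE 0.16, adjusted p = 0.0340). *Tkt*, transketolase of the pentose phosphate pathway that supplies NADPH, had 144, 133 and 144 CPM in day0RT and 279, 197 and 214 CPM in day3C. All 3 cold mice were higher for *Tkt*, at a log2 fold change of 0.76 (SE 0.15, adjusted p = 0.00172). *Elovl5*, an elongase of polyunsaturated fatty acids at chr9:77917364-77984519, rose from 150.0, 104 and 118 CPM to 215, 241 and 231 CPM. Its log2 fold change of 0.85 (SE 0.14, adjusted p = 1.28e-04) was the highest of this list. *Acacb*, the mitochondrial acetyl-CoA carboxylase, was named after its values were seen and rose by 0.47 (SE 0.11, adjusted p = 0.00963), from 343, 409 and 403 CPM to 474, 575 and 577 CPM.

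Other lipogenic genes did not pass the test. *Acaca*, the cytosolic acetyl-CoA carboxylase, had 386, 366 and 376 CPM in day0RT and 533, 506 and 457 CPM in day3C, which did not overlap, with a log2 fold change of 0.41 (SE 0.12, adjusted p = 0.0554). *Elovl6*, the elongase of palmitate, had 259, 143 and 179 CPM against 266, 270.2 and 271 CPM. Its groups did not overlap either, and its log2 fold change was 0.44 (SE 0.15, adjusted p = 0.112). *Scd1*, the stearoyl-CoA desaturase, had 195, 240.3 and 281 CPM against 238, 182 and 324 CPM. The *Scd1* groups overlapped widely (log2 fold change 0.03, adjusted p = 0.968). Leaving out a mouse changed some of the results for lipogenic genes. *Acaca* passed without day3C mouse 3 (adjusted p = 0.0355) and *Elovl6* without day0RT mouse 1 (0.0323). *Tkt* lost its call without day3C mouse 1 (adjusted p = 0.138), *Acly* without day3C mouse 1, day0RT mouse 2 or day0RT mouse 3 (up to 0.168), and *Fasn* without any 1 of 5 mice, with day3C mouse 3 the exception (up to 0.314). *Elovl5* passed without each of the 6 mice, at an adjusted p of at most 0.0165.

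**Figure D2:**
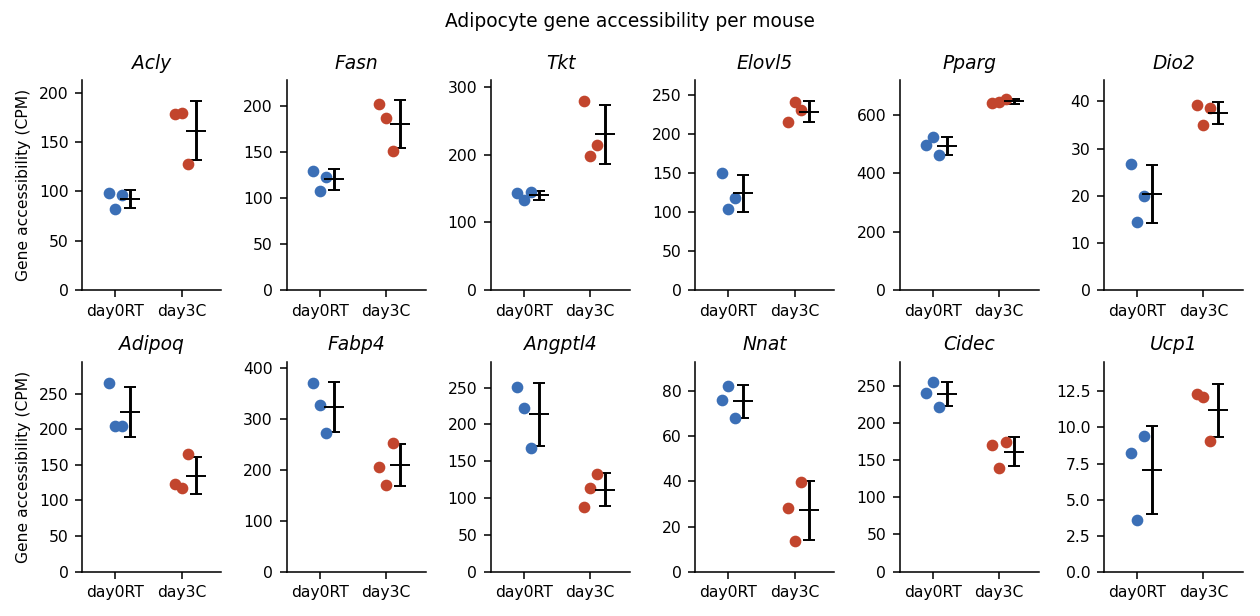
Each panel shows the accessibility of 1 gene in CPM on a linear axis from 0, with a point for each of the 3 day0RT mice (blue) and 3 day3C mice (red) and a bar for the mean and SD. *Acly*, *Fasn*, *Tkt*, *Elovl5* and *Pparg* were higher in every day3C mouse and *Adipoq*, *Fabp4*, *Angptl4*, *Nnat* and *Cidec* lower, *Dio2* did not overlap but missed the threshold (adjusted p = 0.0530), and *Ucp1* overlapped between the groups.

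Steps around glycerol and the entry of carbon into mitochondria held calls in opposite directions. *Gpd2*, the mitochondrial glycerol 3-phosphate dehydrogenase, had 142, 82.5 and 123 CPM in day0RT and 196, 188 and 155 CPM in day3C. It rose by 0.60 on the log2 scale (SE 0.15, adjusted p = 0.0200) with no overlap. *Pck1*, the phosphoenolpyruvate carboxykinase that makes glycerol backbones for triglyceride, fell from 216, 229.6 and 196 CPM to 115, 111 and 184 CPM. Its log2 fold change was −0.67 (SE 0.16, adjusted p = 0.0114), and day3C mouse 3 lay closest to the day0RT mice. These were the only calls among the 12 tested genes of glycerol and triglyceride synthesis, whose median was 0.16. The share called over all genes tested was 1.64%. *Gpd2* lost its call without day3C mouse 1, day0RT mouse 2 or day0RT mouse 3 (adjusted p up to 0.222), and *Pck1* without day3C mouse 1 or day0RT mouse 1 (up to 0.250).

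Of 28 tested genes of pyruvate dehydrogenase and the TCA cycle, 1 rose and none fell, with a median of 0.14. That gene was *Ogdh*, a subunit of the 2-oxoglutarate dehydrogenase, with 16.4, 17.9 and 9.38 CPM in day0RT and 35.2, 34.9 and 31.8 CPM in day3C. Each day3C mouse was above each day0RT mouse, at a log2 fold change of 1.40 (SE 0.29, adjusted p = 0.00256), although only 1 peak of the gene passed the filter and the call was lost without day0RT mouse 3 (adjusted p = 0.193) and with white adipocyte nuclei only (1.04, adjusted p = 0.0914). In beige nuclei *Ogdh* stood at 14.2, 0 and 17.6 CPM in day0RT and 83.3, 124 and 53.2 CPM in day3C, and in white nuclei at 17.0, 19.2 and 8.81 CPM against 27.2, 21.4 and 29.6 CPM. The groups overlapped in neither, and the beige and white differences were not tested against each other. The beige values came from 24, 12 and 22 nuclei in day0RT and 105, 30 and 18 in day3C. In day0RT they therefore rest on very few counts, near the floor. *Pdk4*, the kinase that shuts off pyruvate dehydrogenase, had 136, 154 and 110.2 CPM against 102, 118 and 119 CPM. Its groups overlapped (log2 fold change −0.21, adjusted p = 0.582). None of 21 genes of glycolysis and glucose entry passed (median 0.05, 2 at an unadjusted p under 0.05), and *Hk2*, the insulin-responsive hexokinase, stood at 0.14 (adjusted p = 0.563). None of 22 genes of fatty acid oxidation passed either (median −0.03, 2 at an unadjusted p under 0.05). Among all tested genes 1.64% were called and 14.4% had an unadjusted p under 0.05.

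Among 20 tested genes of insulin signalling 2 of those reported here rose, and the median was −0.14. Rises made up 0.853% of all genes tested. *Akt1*, the kinase downstream of PI3 kinase, went from 86.3, 68.2 and 84.4 CPM to 126, 150.3 and 109 CPM. *Pik3r1*, the regulatory subunit of PI3 kinase, went from 436, 538 and 508 CPM to 549, 735 and 809 CPM. Neither gene overlapped between the groups, and *Akt1* rose by 0.63 (SE 0.16, adjusted p = 0.0168) and *Pik3r1* by 0.48 (SE 0.12, adjusted p = 0.0201) on the log2 scale. Each of them lost its call without day3C mouse 2, day0RT mouse 1 or day0RT mouse 3 among others, at adjusted p values up to 0.111 for *Akt1* and 0.154 for *Pik3r1*.

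The lipid droplet list moved the other way. Of 15 tested genes of lipolysis and the droplet, 4 fell and none rose, the median was −0.20 and 10 were below 0. Over all genes tested 0.784% fell and 0.853% rose. *Cidec*, which fuses droplets, had 240.5, 255 and 222 CPM in day0RT and 171, 139.7 and 174 CPM in day3C. *Plin4*, a droplet coat protein of white adipocytes, had 594, 642 and 508 CPM and then 388, 401 and 456 CPM. *Plin1*, the coat protein that gates lipolysis, had 446, 337 and 348 CPM and then 272, 259.6 and 329 CPM. In all 3 genes the day3C mice lay below every day0RT mouse. Their log2 fold changes were −0.51 for *Cidec* (SE 0.12, adjusted p = 0.0119), −0.47 for *Plin4* (SE 0.12, adjusted p = 0.0166) and −0.41 for *Plin1* (SE 0.11, adjusted p = 0.0404). *Aqp7*, the channel through which glycerol leaves the cell, fell from 132, 118 and 117 CPM to 79.8, 82.0 and 84.1 CPM (log2 fold change −0.59, SE 0.15, adjusted p = 0.0190). Of the counts of *Plin4*, 28.3% came from peaks it shares with its neighbour *Hdgfl2*. Each of these 4 falls lost its call without day0RT mouse 1 or day0RT mouse 2, and *Plin4*, *Plin1* and *Aqp7* also without day3C mouse 1. The highest adjusted p was 0.0558 for *Cidec*, 0.154 for *Plin4*, 0.333 for *Plin1* and 0.161 for *Aqp7*.

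Of 12 tested genes of fatty acid uptake and binding, 2 fell and none rose, with a median of 0.005. Falls made up 0.784% of all genes tested. *Angptl4*, the secreted inhibitor of lipoprotein lipase at chr17:33773750-33781830, had 251, 222 and 168 CPM in day0RT and 87.6, 114 and 133 CPM in day3C. It was lower in every cold mouse, by a fitted 1.98-fold (log2 fold change −0.98, SE 0.16, adjusted p = 1.28e-04). All 5 of its tested peaks, which are part of that sum, had negative log2 fold changes. *Fabp4*, the fatty acid carrier of adipocytes, fell from 369.9, 326 and 273 CPM to 206, 170.0 and 252 CPM. The groups were apart but close, with day3C mouse 3 below the lowest day0RT mouse by a small margin (log2 fold change −0.59, SE 0.13, adjusted p = 0.00609). *Angptl4* kept its call without each mouse (adjusted p at most 0.0410), and *Fabp4* lost it without day3C mouse 1 or day0RT mouse 1 (up to 0.0997).

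Among 28 tested adipokines and genes selective for white fat, 4 fell and none rose, the median was −0.15, and 21 were below 0. The share of falls over all genes tested was 0.784%. *Adipoq*, adiponectin, at chr16:23146536-23158028, had 265, 204 and 204 CPM in day0RT and 123, 117 and 165 CPM in day3C. All cold mice were lower, by a fitted 1.69-fold (log2 fold change −0.76, SE 0.13, adjusted p = 3.76e-04), and the call held without each mouse (adjusted p at most 0.0296). *Nnat*, the imprinted gene of neuronatin, a proteolipid of the endoplasmic reticulum, fell from 76.0, 82.5 and 68.0 CPM to 28.3, 13.7 and 39.8 CPM. This 2.56-fold fall (log2 fold change −1.36, SE 0.21, adjusted p = 1.37e-05) was the largest among the listed genes. *Nnat* lies at chr2:157560078-157562522 within *Blcap*, and every one of its peaks was also counted for *Blcap*, so the 2 genes cannot be told apart there. *Blcap* itself fell from 187, 194 and 174 CPM to 91.2, 75.9 and 100.0 CPM (log2 fold change −1.01, SE 0.14, adjusted p = 2.93e-06), with 34.9% of its counts in peaks of *Nnat*. The other falls were *Med16*, a subunit of the Mediator complex (−0.52, SE 0.14, adjusted p = 0.0264), and *Tle3*, a corepressor of white fat (−0.45, SE 0.11, adjusted p = 0.0187). *Med16* shares 43.4% of its counts with *Gm26602* and lost its call without any 1 of 5 mice (adjusted p up to 0.154), and *Tle3* without day3C mouse 1 or day0RT mouse 2 (up to 0.253). *Lep*, leptin, had 166, 226 and 179 CPM against 221, 159 and 172 CPM, which overlapped (log2 fold change 0.06, adjusted p = 0.892).

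Of 31 tested adipogenic transcription factors 1 rose and 1 fell, with a median of −0.02. Over all genes tested 1.64% were called. *Pparg*, the nuclear receptor that drives adipocyte genes, had 497, 524 and 462 CPM in day0RT and 639, 644 and 656 CPM in day3C. The cold mice were tightly grouped above the others (log2 fold change 0.40, SE 0.10, adjusted p = 0.0187). Of the 27 tested peaks of *Pparg*, which are part of that sum, 24 were above 0. *Zbtb16*, the zinc finger factor PLZF, had 715, 1302 and 1175 CPM against 690.0, 666 and 762 CPM. It fell by 0.58 on the log2 scale (SE 0.13, adjusted p = 0.00963), yet the groups overlapped, because day0RT mouse 1 lay below day3C mouse 3. *Pparg* lost its call without day3C mouse 1, day0RT mouse 1 or day0RT mouse 3 (adjusted p up to 0.184), and *Zbtb16* without day3C mouse 1, day0RT mouse 2 or day0RT mouse 3 (up to 0.124).

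No thermogenic gene passed the test. All 30 listed genes were tested, none was called, 5 had an unadjusted p under 0.05, 21 were above 0, and the median was 0.12. Over all tested genes 1.64% were called and 14.4% had an unadjusted p under 0.05, so counts this small do not set the list apart. *Ucp1* had 8.22, 3.59 and 9.38 CPM in day0RT and 12.3, 12.1 and 9.09 CPM in day3C, near the low end of the genes tested. The *Ucp1* groups overlapped (log2 fold change 0.54, SE 0.45, adjusted p = 0.636). *Dio2*, the deiodinase that makes active thyroid hormone, had 26.7, 14.3 and 19.9 CPM against 39.1, 34.9 and 38.7 CPM. These did not overlap, and the log2 fold change of 0.87 (SE 0.25) had an adjusted p of 0.0530. In 3 of 15 alternative settings *Dio2* passed. *Ppargc1a*, the coactivator of mitochondrial genes, stood at 0.31 (adjusted p = 0.326), *Cidea*, a droplet protein of brown fat, at 0.11 (adjusted p = 0.862), and *Prdm16*, the brown fat determination factor, at −0.02 (adjusted p = 0.962). The share of adipocyte nuclei in the beige cluster was 12.2%, 7.69% and 7.72% in the day0RT mice and 14.8%, 13.2% and 8.61% in the day3C mice. The means of 9.22% ± 2.62 and 12.2% ± 3.21 (SD, n = 3 each) differed by 2.97 percentage points, which did not pass (exact two-sided permutation p = 0.2).

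Of 33 tested adrenergic and cAMP genes 1 fell and none rose, with a median of −0.05. With 1.64% of all genes tested called, 1 call does not set a list of this size apart. *Adcy5*, an adenylyl cyclase, had 460.4, 556 and 552 CPM in day0RT and 337, 413 and 444 CPM in day3C. The highest cold mouse stayed below the lowest day0RT mouse (log2 fold change −0.42, SE 0.11, adjusted p = 0.0285), and the call was lost without day3C mouse 1, day0RT mouse 2 or day0RT mouse 3 (adjusted p up to 0.371). *Adrb3*, the adrenergic receptor that CL binds, had 214, 183 and 178 CPM against 135, 152 and 191 CPM. These overlapped (log2 fold change −0.31, SE 0.13, adjusted p = 0.245). In the list of creatine and calcium cycling, with a median of 0.07, *Itpr1*, a calcium release channel of the endoplasmic reticulum, was the only one of 17 genes called. It rose from 481, 459 and 489 CPM to 676, 706 and 675 CPM (log2 fold change 0.51, SE 0.10, adjusted p = 0.00223), with no overlap and with its call kept without each mouse (adjusted p at most 0.0176).

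None of 14 genes of the glucocorticoid receptor and its targets was called, nor any of 20 clock genes or 19 secreted and angiogenic genes. Their medians were −0.24, 0.07 and 0.21, and 5, 3 and 4 of them had an unadjusted p under 0.05. Among all tested genes 1.64% were called and 14.4% had an unadjusted p under 0.05. Of 10 adipocyte markers, *Pparg* rose, and *Adipoq*, *Plin1*, *Cidec* and *Fabp4* fell. Of the 10, 7 were below 0, and their median was −0.36. Summed, these markers overlapped between the groups, at 2632 to 3228 CPM in day0RT and 2437 to 2761 CPM in day3C. None of 10 beige markers was called (median 0.25). Lists of markers of other cell types held no called gene. The summed macrophage markers nevertheless lay at 178 to 193 CPM in day0RT and 224 to 284 CPM in day3C without overlap, with 5 of 10 markers tested and 1 of the 10 at 0 in day0RT. The other sums overlapped, such as T cell markers at 148 to 221 CPM and 130 to 164 CPM, progenitor markers at 221 to 313 CPM and 189 to 252 CPM, and endothelial markers at 172 to 247 CPM and 213 to 246 CPM. The part of macrophage signal in the results was not tested.

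**Figure D3:**
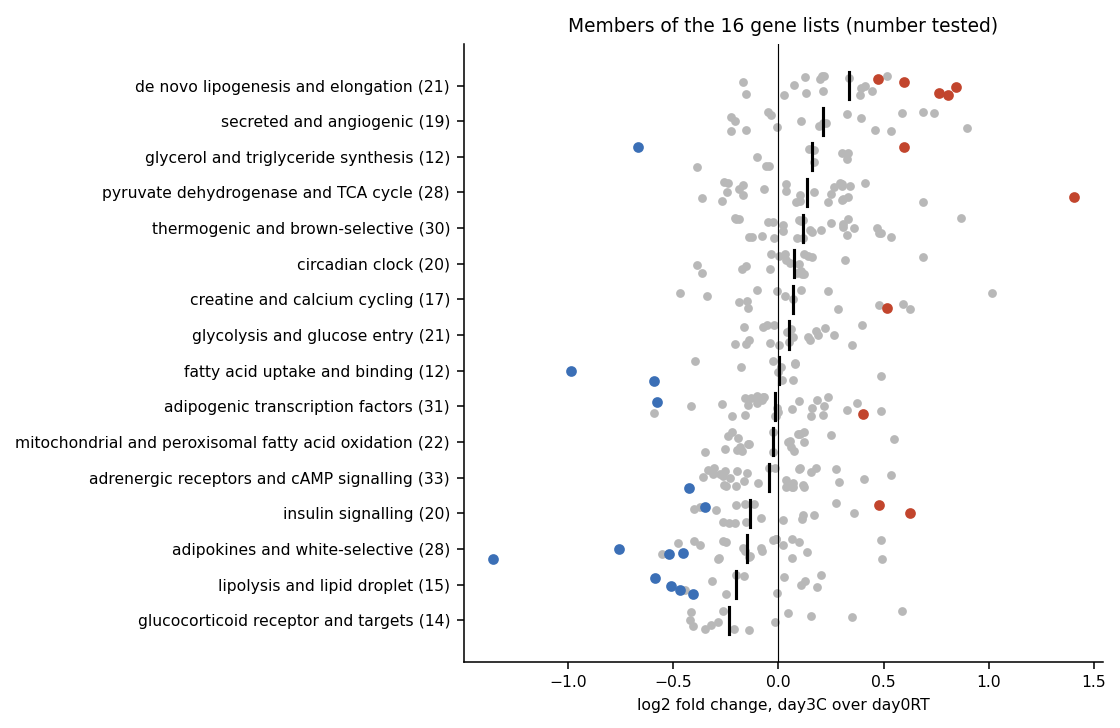
Each point is a tested gene of 1 of the 16 lists, placed by its log2 fold change of day3C over day0RT, with red for called higher, blue for called lower and grey for not called, and a black bar at the median of the list. The lists are ordered by their medians, from 0.33 in de novo lipogenesis to −0.24 in the glucocorticoid list, and the median over all genes was −0.01.

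Outside the lists, the rise with the smallest adjusted p among the 10 largest was *Galnt17*, an N-acetylgalactosaminyltransferase at chr5:130872082-131308497. It had 22.6, 21.5 and 28.1 CPM in day0RT and 72.6, 69.8 and 55.7 CPM in day3C. The groups were far apart, 2.70-fold (log2 fold change 1.43, SE 0.21, adjusted p = 8.77e-06). *Nabp1*, a protein that binds single-stranded DNA, rose from 41.1, 35.9 and 42.2 CPM to 96.0, 112 and 84.1 CPM (log2 fold change 1.24, SE 0.21, adjusted p = 1.95e-04). Both kept their calls without each mouse, at adjusted p values of at most 0.00321 and 0.0165. *Odr4* (1.47), *Mmp27* (1.45), *Map3k15* (1.45), *Spock3* (1.44), *Cers3* (1.41), *Khdc3* (1.29) and *Actl6a* (1.24) also rose, each with a day3C mean of at most 33.1 CPM and 1 peak past the filter, and each lost its call without at least 2 of the 6 mice. Of the counts of *Odr4*, 59.7% lay in peaks shared with *Tpr*, and the counts of *Khdc3* were wholly shared with *Gm20509*. On the other side, *Ifi27l2a* (−1.18), *Trp53rkb* (−1.04), *Itprip* (−1.03), *Otub2* (−0.92), *Tnfrsf14* (−0.91), *Chrna5* (−0.91) and *Lbp* (−0.90) fell, with overlapping groups in *Tnfrsf14* and *Chrna5*. Each of these 7 lost its call without at least 1 mouse, *Trp53rkb*, *Itprip* and *Otub2* without any of 5 mice, and *Chrna5* and *Tnfrsf14* came to −0.49 and −0.57 at their smallest. *Itprip* shared all its counts with *Cfap43*. In all, 41 of the 53 named genes were called, 8 of the 41 stayed past the threshold without each mouse in turn, and 28 of the 41 lost the call without day3C mouse 1. None changed sign. In DESeq2, 9 of the named calls passed, those of *Blcap*, *Adipoq*, *Fabp4*, *Cidec*, *Tle3*, *Pparg*, *Itpr1*, *Tkt* and *Elovl5*, while 14 did not and the others had no adjusted p.

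Of 47835 peaks tested, 308 rose and 302 fell, which is 1.28% of those tested (0.644% up and 0.631% down). Unadjusted p values were under 0.05 for 6748 peaks (14.1%). The groups did not overlap at 288 of the 308 rises and 256 of the 302 falls, against 9.92% of all tested peaks with day3C higher and 8.2% with day3C lower. The peaks were called on these same mice, so this separation is no independent check. The rises were distal. Promoters held 4.55% of them, beside 17.9% of the falls and 24.4% of all tested peaks, while introns held 43.5%, 35.1% and 33.9% and intergenic sequence 42.5%, 37.7% and 30.3%. The median log2 fold change was 1.78 for the rises and −0.99 for the falls. The values moved with how widely a peak was open. The median log2 fold change of all peaks fell from 0.11 at peaks open in 2% to 5% of nuclei to −0.19 at those open in more than 20%, and stood at −0.02 for the latter among nuclei of 1000 to 4000 counts. The part of depth per nucleus in this was not tested. Among those nuclei 7 peaks were called. The 58 rises that could be fitted there had a median of 1.20 over all nuclei and 1.39 there, and the 171 falls −0.80 and −0.84. All of them had the same sign in both, beside 9859 of the 13321 peaks fitted there, but these nuclei are among those in which the peaks were called. DESeq2 called 1 peak, in an intron of *Adipoq*, and without day3C mouse 1 edgeR called 167 peaks.

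Called peaks clustered at some genes that the sums also called and at others that the sums did not call. Over all tested peaks 0.644% rose and 0.631% fell. A gene sum is made of the peaks in its body and just upstream, so the calls of both are not independent. Of 18 tested peaks nearest to the start of *Tkt*, 4 rose, as did 3 of 10 nearest to *Pygl*, the glycogen phosphorylase of liver type. Near *Bhlhe40*, a clock and adipocyte repressor, 5 of 18 rose, although the gene sum did not pass (log2 fold change 0.69, adjusted p = 0.114). Likewise 2 of 19 rose near *Srebf1* (sum 0.13, adjusted p = 0.612) and 2 of 39 near *Trib1* (sum 0.02, adjusted p = 0.970). Of 11 peaks nearest to *Nnat*, 6 fell, as did 4 of 24 nearest to *Zbtb16*, 3 of 7 nearest to *Adipoq*, 3 of 6 nearest to *Angptl4*, and 3 of 11 nearest to *Cebpa*, the adipogenic factor whose sum stood at −0.41 (adjusted p = 0.0960). These clusters were picked after their values were seen.

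The largest rise by the naming rule was an exonic peak of *Acly*, chr11:100504918-100506339, with 2.28, 3.81 and 8.78 CPM in day0RT and 47.6, 35.2 and 23.3 CPM in day3C. Peak values are scaled to 1000000 counts per mouse over the peaks tested, with the total adjusted by the TMM factor of edgeR. The lowest cold mouse was well above the highest day0RT mouse, and the log2 fold change was 2.75 (SE 0.38, adjusted p = 3.49e-08). An intergenic peak at chr13:46152994-46153808, 120320 bases from the start of *Stmnd1*, rose from 6.85, 0 and 3.76 CPM to 22.2, 33.5 and 33.1 CPM (log2 fold change 2.67, SE 0.47, adjusted p = 1.02e-04). A peak of *Fmn2*, which encodes an actin nucleator, at chr1:174666283-174667261, rose from 6.85, 7.62 and 6.27 CPM to 26.4, 33.5 and 28.2 CPM (2.04, SE 0.40, adjusted p = 6.23e-04). These 3 peaks did not overlap between the groups. A peak 9026 bases upstream of *Pdha1*, which encodes the E1 subunit of pyruvate dehydrogenase, at chrX:160146857-160148021, rose from 11.4, 11.4 and 5.02 CPM to 34.9, 26.8 and 28.2 CPM (2.00, SE 0.36, adjusted p = 1.08e-04). An intron of *Gyg*, glycogenin, the primer of glycogen, held a peak at chr3:20134507-20134988 that went from 4.56, 7.62 and 10.0 CPM to 32.9, 20.1 and 28.2 CPM. It rose by 1.90 (SE 0.37, adjusted p = 6.55e-04), again without overlap. The remaining named rises were near *Srgap1* (2.08), *Bhlhe40* (2.07) and *Dpy19l1* (1.94). Without day3C mouse 1 the peaks near *Bhlhe40* (adjusted p = 0.170) and in *Gyg* (0.0720) lost their calls. In an intron of *Acaca*, the peak with the smallest p, chr11:84192498-84192758, rose from 4.56, 7.62 and 6.27 CPM to 24.1, 15.1 and 12.3 CPM (1.74, SE 0.44, adjusted p = 0.0189), but not without day3C mouse 1 (1.15, adjusted p = 0.474).

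Among the falls, a peak at chr6:116407454-116408908 in an exon of *March8* had 50.2, 45.7 and 56.4 CPM in day0RT and 16.9, 13.4 and 19.6 CPM in day3C. It was the largest fall by the rule (log2 fold change −1.63, SE 0.25, adjusted p = 1.36e-06). A promoter peak of *Nnat* at chr2:157558515-157558864, 1388 bases upstream of its start, fell from 38.8, 30.5 and 42.6 CPM to 14.7, 5.03 and 20.9 CPM (−1.43, SE 0.28, adjusted p = 8.25e-04), and another *Nnat* promoter peak, 1258 bases downstream of the start, fell by 1.27 on the log2 scale. Neither overlapped between the groups. The other named falls were near *Gpx1* (−1.45), *Usp24* (−1.41), *Wdr11* (−1.41), *Nnat* at 46376 bases (−1.35) and *Myc* (−1.32, overlapping). Without day3C mouse 1 the fall near *Usp24* (adjusted p = 0.114) and that of the *Nnat* peak downstream of its start (0.0706) did not pass. An intron peak of *Adipoq*, chosen after its values were seen, at chr16:23149037-23149346, had 47.9, 34.3 and 40.1 CPM in day0RT and 9.45, 10.1 and 12.3 CPM in day3C. The cold mice were all far lower there (−2.02, SE 0.30, adjusted p = 3.31e-07). The peak at the *Ucp1* start did not pass (0.59, adjusted p = 0.682).

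The 300 bases around the centre of 7 of these peaks are shown on the plus strand of GRCm38, read from the reference genome, since the palindrome TTCNNNGAA was more frequent in rises than in falls. Such letters, read alike on both strands, are known as binding letters of STAT factors, which carry growth hormone and cytokine signals to DNA. Capitals mark each match, and the printed sequences of *Acly* and *Nnat* hold none. The choice of windows favours rises with a match. Not printed are the named falls that also held one, near *Gpx1* and *Usp24* and at the other *Nnat* promoter peak. The named rises near *Srgap1*, *Bhlhe40* and *Dpy19l1*, which held none, are not printed either.
Acly exon, chr11:100505479-100505778: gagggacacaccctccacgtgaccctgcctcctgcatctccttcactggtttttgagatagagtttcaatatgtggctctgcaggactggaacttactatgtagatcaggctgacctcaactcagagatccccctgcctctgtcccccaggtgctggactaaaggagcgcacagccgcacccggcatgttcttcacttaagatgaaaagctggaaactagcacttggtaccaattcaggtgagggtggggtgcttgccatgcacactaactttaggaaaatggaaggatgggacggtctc
Stmnd1 region, chr13:46153251-46153550: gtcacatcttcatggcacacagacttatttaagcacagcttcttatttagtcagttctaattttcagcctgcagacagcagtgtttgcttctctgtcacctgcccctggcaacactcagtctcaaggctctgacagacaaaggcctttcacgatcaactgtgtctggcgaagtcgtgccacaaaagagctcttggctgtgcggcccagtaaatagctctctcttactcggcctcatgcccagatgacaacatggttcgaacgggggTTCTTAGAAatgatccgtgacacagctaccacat
Fmn2, chr1:174666622-174666921: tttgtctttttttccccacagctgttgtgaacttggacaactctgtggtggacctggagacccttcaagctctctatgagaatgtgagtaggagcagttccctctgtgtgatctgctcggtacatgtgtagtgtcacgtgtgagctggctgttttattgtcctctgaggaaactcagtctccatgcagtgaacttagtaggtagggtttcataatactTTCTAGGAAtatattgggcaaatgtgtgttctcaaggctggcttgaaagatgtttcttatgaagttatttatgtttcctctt
Pdha1 upstream, chrX:160147289-160147588: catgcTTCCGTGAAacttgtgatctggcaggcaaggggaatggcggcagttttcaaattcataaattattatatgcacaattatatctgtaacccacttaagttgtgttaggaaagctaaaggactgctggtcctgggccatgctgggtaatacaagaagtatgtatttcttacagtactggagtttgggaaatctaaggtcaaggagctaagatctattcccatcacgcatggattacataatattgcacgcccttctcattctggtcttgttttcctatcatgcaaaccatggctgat
Gyg intron, chr3:20134598-20134897: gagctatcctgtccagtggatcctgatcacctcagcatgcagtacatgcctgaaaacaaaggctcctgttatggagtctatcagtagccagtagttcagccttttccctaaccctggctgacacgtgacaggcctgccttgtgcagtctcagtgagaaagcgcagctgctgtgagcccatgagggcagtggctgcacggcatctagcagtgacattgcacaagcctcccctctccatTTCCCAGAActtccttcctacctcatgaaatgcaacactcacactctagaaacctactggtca
Acaca intron, chr11:84192478-84192777: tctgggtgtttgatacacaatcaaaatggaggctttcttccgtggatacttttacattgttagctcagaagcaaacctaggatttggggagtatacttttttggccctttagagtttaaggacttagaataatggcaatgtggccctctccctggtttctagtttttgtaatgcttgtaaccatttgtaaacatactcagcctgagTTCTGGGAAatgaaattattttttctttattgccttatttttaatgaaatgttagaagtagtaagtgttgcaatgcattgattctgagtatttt
Nnat promoter, chr2:157558540-157558839: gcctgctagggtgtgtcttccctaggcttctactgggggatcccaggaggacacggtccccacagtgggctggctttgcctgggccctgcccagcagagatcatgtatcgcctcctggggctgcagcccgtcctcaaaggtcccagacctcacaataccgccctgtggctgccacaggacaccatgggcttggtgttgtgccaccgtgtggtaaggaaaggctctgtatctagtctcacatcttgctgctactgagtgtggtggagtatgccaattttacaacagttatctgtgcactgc

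The match began at base 267 of the window near *Stmnd1*, 219 in *Fmn2*, 6 near *Pdha1*, 238 in *Gyg* and 207 in *Acaca*. Over all called rises, 82 of 308 windows (26.6%) held TTCNNNGAA, beside 22 of 302 falls (7.28%) and 4751 of 47835 tested windows (9.93%). With 1, 2, 4 or 5 bases between the arms the shares of the rises were 8.12%, 11.7%, 14.6% and 7.14%. Those of the falls were 5.96%, 12.6%, 8.61% and 9.60%, and those of tested windows 7.95%, 8.53%, 7.69% and 7.76%. The form with 4 bases was thus also more frequent in rises than in tested windows. Outside promoters, 26.9% of rises, 6.85% of falls and 11.2% of tested peaks held it. Among promoter sequences of genes, it was in 6.47% for genes called higher, 8.33% for genes called lower and 6.63% for all tested genes. Of the 82 peaks, 40 were intronic, 34 intergenic, 5 exonic and 3 in promoters, and they included peaks nearest to *Cish* (log2 fold change 1.25), a STAT-induced inhibitor of cytokine receptors, *Irs2* (1.15), an insulin receptor substrate, *Pygl* (1.09), *Bhlhe40* (1.01) and *Thrsp* (0.95), a factor of lipogenesis. These neighbours were picked after their values were seen. Leaving out mice moved the share of the rises from 14.1% without day0RT mouse 1 to 39.2% without day0RT mouse 3. None of the 7 peaks called among nuclei of 1000 to 4000 counts held it.

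Other letters divided the peaks less. TTGCNNAA, the letters of C/EBP factors of adipogenesis, was in 34.7% of rises, 19.2% of falls and 21% of tested windows. Median GC was 45.7%, 51.2% and 50.7% in these sets. At GC up to 40%, 45%, 50%, 55% and above, 33.3%, 44.7%, 28.9%, 31.0% and 31.6% of rises held TTGCNNAA. The shares of tested windows were 38.9%, 33.1%, 26.0%, 18.6% and 7.70%. For TTCNNNGAA, the shares of rises in the same 5 ranges were 26.3%, 32.9%, 25.0%, 19.7% and 31.6%. In tested windows TTCNNNGAA had shares of 13.8%, 13.8%, 11.8%, 10.1% and 5.30%. The part of base composition was not tested for either. ACANNNTGT, bound by the glucocorticoid receptor, was in 7.47%, 14.2% and 9.31%. TGANTCA of AP-1 was in 9.42%, 8.94% and 9.45%, and TGACGTCA, bound by CREB, in none of either and in 0.792% of tested windows. A match describes the letters only. Of the 8 named rises 4 held TTCNNNGAA, and of the 8 named falls 3 did.

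**Figure D4:**
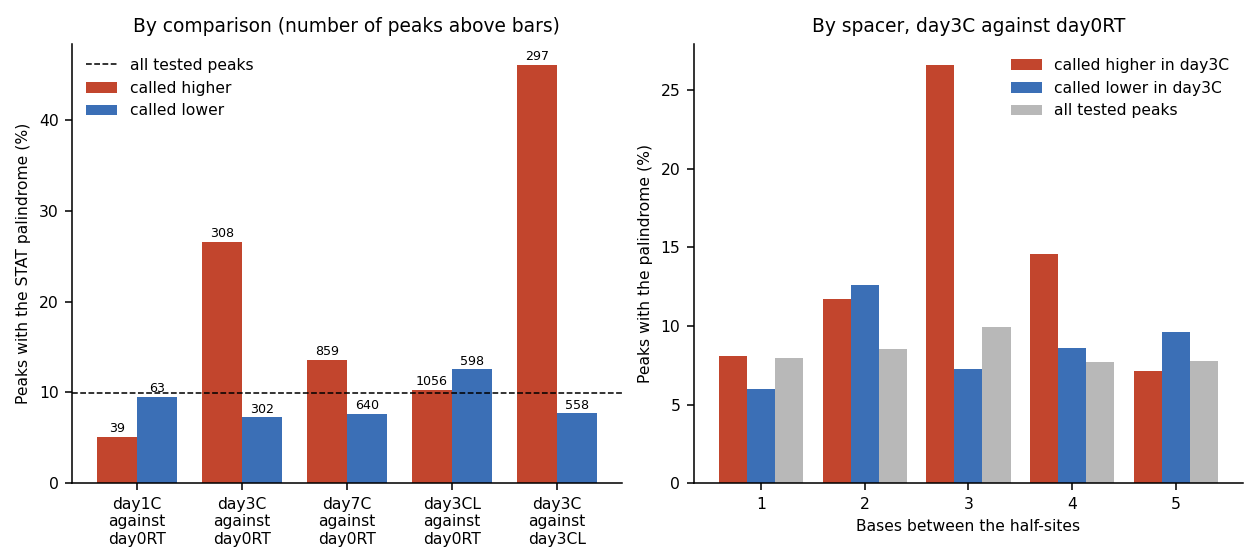
The left panel gives the percentage of called peaks whose central 300 bases hold TTCNNNGAA, red for called higher and blue for called lower, in 5 comparisons, with the number of peaks above each bar and a dashed line at 9.93% of all tested peaks. The right panel gives the same percentage for day3C against day0RT with 1 to 5 bases between the arms, where the rises reached 26.6% with 3 bases and at most 14.6% with any other number.

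Day 3 was also set directly against the other groups, which tests the difference itself. Against day1C, 15 genes were higher and 24 lower in day3C (0.271% of those tested, 0.104% and 0.166%). The lower genes of the lists were those of the lipid droplet and of fatty acid handling, namely *Pck1* (−0.87, SE 0.15, adjusted p = 2.64e-04), *Fabp4* (−0.82, SE 0.12, adjusted p = 2.98e-05), *Angptl4* (−0.80), *Cidec* (−0.70, SE 0.11, adjusted p = 1.41e-04), *Plin4* (−0.61), *Plin1* (−0.52), *Acsl1*, an acyl-CoA synthetase (−0.51), and *Lipe*, the hormone-sensitive lipase (−0.47). *Fabp4* stood at 323 ± 48.5 CPM in day0RT, 371 ± 50.7 in day1C, 209 ± 41.3 in day3C and 213 ± 28.5 in day7C (SD, n = 3 each). *Cidec* went through 239 ± 16.6, 266 ± 22.5, 161 ± 18.9 and 158 ± 3.4 CPM in the same order. *Acly*, at 151 ± 55.6 CPM in day1C and 162 ± 29.7 in day3C, did not differ beyond its spread (0.23, SE 0.17, adjusted p = 0.656). The count of 39 calls was 5 without day3C mouse 1 and 81 without day3C mouse 3. Taking only barcodes found in no other mouse left 7.

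Against day7C, 23 genes were higher and 40 lower in day3C (0.437%, or 0.16% and 0.277%). *Ucp1* was lower on day 3, at 11.2 ± 1.82 CPM beside 26.6 ± 9.2 on day 7 (log2 fold change −1.16, SE 0.28, adjusted p = 0.0372). The other lower genes of the lists were *Grk3*, a receptor kinase (−0.90), *Otop1*, a proton channel of brown fat (−0.82), *Elovl6* (−0.77, SE 0.12, adjusted p = 9.18e-05), *Scd2*, a desaturase (−0.65), *Acsl5* (−0.58), *Pank1* of coenzyme A synthesis (−0.51), *Acot11*, a thioesterase (−0.51), and *Acaca* (−0.48, SE 0.11, adjusted p = 0.0227). *Lrp3*, a lipoprotein receptor relative (0.88), and *Fads3*, a fatty acid desaturase (0.54), were higher on day 3. The beige share of adipocyte nuclei was 8.61% to 14.8% in day3C and 26.1% to 32.5% in day7C mice, and among white adipocyte nuclei alone only 2 genes were called. The 63 calls fell to 1 without day7C mouse 1, to 16 without day3C mouse 3 and to 22 without day3C mouse 1.

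Against day3CL, at the same day, 64 genes were higher and 146 lower in day3C (1.46%, or 0.444% and 1.01%). Several genes of fatty acid synthesis were lower in cold than after CL. *Acly* stood at 162 ± 29.7 CPM in day3C and 283 ± 90.0 in day3CL (SD, n = 3 each; log2 fold change −0.71, SE 0.14, adjusted p = 0.00106). *Acaca* stood at 498 ± 38.4 and 792 ± 145 CPM (−0.66, SE 0.10, adjusted p = 2.08e-05), and *Scd1* at 248 ± 71.4 and 412 ± 80.0 CPM (−0.74, SE 0.12, adjusted p = 7.66e-05). *Scd2* (−0.93), *Acss2*, the acetyl-CoA synthetase of the cytosol (−0.76), *Foxo1*, the factor that insulin signalling inhibits (−0.52), *Pnpla3* (−0.50), *Elovl6* (−0.43) and *Lpin1*, a phosphatidate phosphatase (−0.39), were lower as well. Genes higher in cold were *Lrp3* (1.21), *Bhlhe40* (0.64), *Igf1*, insulin-like growth factor (0.54, SE 0.11, adjusted p = 0.00106), *Adcy5* (0.51), *Akt1* (0.47), *Steap4*, a metalloreductase (0.47), and *Elovl5* (0.44, SE 0.11, adjusted p = 0.0186). *Elovl5* stood at 229 ± 13.1 CPM in day3C and 174 ± 27.5 in day3CL. The 210 calls fell to 31 without day3CL mouse 2, to 103 without day3C mouse 1 and to 136 without day3C mouse 3 or with barcodes of no other mouse only.

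Over peaks, 297 were higher and 558 lower in day3C than in day3CL (1.79%, or 0.621% and 1.17%), a comparison added after the palindrome had been seen. TTCNNNGAA was in 137 of the 297 higher (46.1%) and 43 of the 558 lower peaks (7.71%). Side by side, the peaks that rose over the shared day0RT mice held it in 5.13% of cases in day1C, where 0.0815% of tested peaks rose, in 13.6% in day7C, where 1.8% rose, and in 10.3% in day3CL, where 2.21% rose. Set directly against day7C, TTCNNNGAA was in 2 of 13 peaks higher in day3C (15.4%) and 6 of 30 lower (20.0%). Against day1C it was in 7 of 16 higher (43.75%) and 5 of 55 lower peaks (9.09%). Among the printed windows, the peak near *Stmnd1* was higher in day3C than in day3CL (1.45, adjusted p = 3.44e-05), as were those in *Acaca* (1.14, adjusted p = 0.00798) and *Gyg* (0.84, adjusted p = 0.0110). The peaks in *Fmn2* (0.38, adjusted p = 0.444) and near *Pdha1* (0.24, adjusted p = 0.647), whose printed windows also held a match, did not pass. Of the printed peaks with no match, the exonic *Acly* peak was lower (−0.90, adjusted p = 3.02e-07). The *Nnat* promoter peak did not pass (0.51, adjusted p = 0.482). The share of the peaks higher than in day3CL ran from 34.6% without day3C mouse 2 to 70.6% without day3CL mouse 2, when 64 peaks were called in all.

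**Figure D5:**
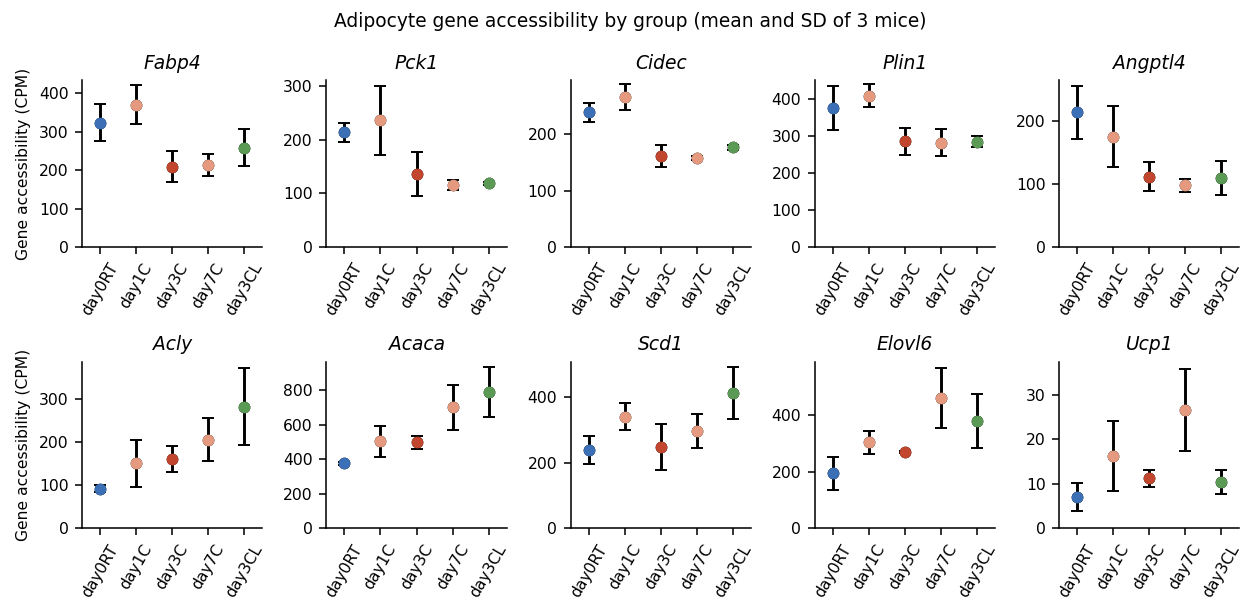
Points and bars give the mean accessibility and SD of 3 mice in CPM, on a linear axis from 0, for 10 genes in day0RT, day1C, day3C, day7C and day3CL adipocytes. *Fabp4*, *Pck1*, *Cidec* and *Plin1* were lower in day3C than in day1C, *Ucp1* reached 26.6 CPM in day7C, and *Acly*, *Acaca* and *Scd1* had their highest means in day3CL.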

How the data were processed

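Per the labels and the methods, the authors aligned reads to mm10 with Bowtie2, removed duplicates per barcode with Picard, called peaks with MACS2 per cluster, clustered nuclei with Signac and named the clusters. Deposited were a matrix with 189598 peaks and 32552 nuclei and a table giving the mouse, group and cluster of each nucleus. The values in the deposited matrix are counts, all 1 apart from 145 stored zeros, so a sum over nuclei counts the nuclei with reads in a peak. The 4 deposited libraries are sequencing lanes that each hold nuclei of all groups, so the mouse of a nucleus came from that table.

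For the values given here, counts were summed per mouse over adipocyte and beige nuclei. A gene took the peaks over its body and 2000 bases upstream (GENCODE vM21 on GRCm38, 17196 of 21938 coding genes with a peak). Genes and peaks with enough counts (filterByExpr, minimum count 10, total 15, proportion 0.7) entered the quasi-likelihood test of edgeR 4.0.16 with TMM factors in R 4.3.3 over the 21 adipocyte sums of all 7 groups, two-sided, with Benjamini-Hochberg adjustment and a threshold of 0.05. SE is the log2 fold change divided by the root of its F statistic. DESeq2 1.42.0 was the other tool, and limma 3.58.1 was loaded with edgeR. Exact permutation tests, tables and motif counts used scipy 1.17.1, numpy 2.4.6 and pandas 2.3.3 in Python 3.11.15. Mice are the replicates. Total gene counts per mouse ran from 282257 to 3321425 in the 2 groups compared. Each SD is the spread over 3 mice, while each SE and adjusted p comes from the edgeR fit over all 21 sums. Scripts were first tested on simulated data.

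Named are called genes of 16 pathway lists (at most 4 rises and 4 falls each), 16 genes named whatever their result, the 10 largest rises and falls past the threshold with at least 20 counts per library and all day3C mice on 1 side of the day0RT mean, and for peaks the 8 largest of each by that rule, the peaks of *Ucp1* and the best peak of the lipogenic genes. The members, lists and tests were chosen with earlier results of these data known. Peak coordinates are those of the deposited names, and windows count from 1. Promoter peaks lie within 2000 bases of a gene start, and letters were searched on both strands. Alternatives changed the tool, filter, scaling, mice, replicate block, groups, nuclei and peaks used. Not analysed here were the later CL groups, other cell types and sequence reads. The result of 1 named gene is not reported here.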

Additional observations from a re-analysis of the deposited data

Results flagged for a closer look

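Differences between groups that passed their own test in edgeR are given as log2 differences of day3C with the adjusted p, since the effect against day0RT then differed between time points or treatments. Day3C was lower than day1C at *Angptl4* (−0.80, adjusted p = 0.00639), *Blcap* (−0.62, adjusted p = 0.0251), *Cidec* (−0.70, adjusted p = 1.41e-04), *Fabp4* (−0.82, adjusted p = 2.98e-05), *Pck1* (−0.87, adjusted p = 2.64e-04), *Plin1* (−0.52, adjusted p = 0.00938) and *Plin4* (−0.61, adjusted p = 0.00153), and higher at *Galnt17* (0.74, adjusted p = 0.0341). It was lower than day7C at *Acaca* (−0.48, adjusted p = 0.0227), *Elovl6* (−0.77, adjusted p = 9.18e-05) and *Ucp1* (−1.16, adjusted p = 0.0372). It was lower than day3CL at *Acaca* (−0.66, adjusted p = 2.08e-05), *Acly* (−0.71, adjusted p = 0.00106), *Elovl6* (−0.43, adjusted p = 0.0488) and *Scd1* (−0.74, adjusted p = 7.66e-05), and higher at *Adcy5* (0.51, adjusted p = 0.00256), *Akt1* (0.47, adjusted p = 0.0161) and *Elovl5* (0.44, adjusted p = 0.0186).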

How the results depend on the processing

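Given here are call counts that moved by more than 1.5 times, counts under the replicate block, and ranges leaving out a mouse. Shares with TTCNNNGAA in some settings are also given, and several of these moved by less. Genes against day0RT (236) numbered 53 with DESeq2, 150 with white adipocyte nuclei only, 153 with nuclei of at least 2000 counts, 19 with nuclei of 1000 to 4000 counts, 35 with promoter peaks only, and 75 to 244 leaving out a mouse. Peaks (610) numbered 1 with DESeq2, 140 without the filter, 379 with only the 2 groups, 317 with white nuclei, 272 with at least 2000 counts, 7 with 1000 to 4000, 375 with barcodes of no other mouse, and 119 to 562 leaving out a mouse. With the replicate number as a block, peaks numbered 375 and genes 168, and genes against day1C, day7C and day3CL numbered 48, 92 and 190. The block ended the calls of 7 of the 41 named genes. Same-numbered mice of day3C and the 4 other groups did not deviate together (correlations −0.12 to 0.029), although each of the 1790 barcode pairs of day3C with day1C or day7C joined mice of 1 number. Against day1C (39) there were 2 with DESeq2, 11 with at least 2000 counts, 6 with 1000 to 4000, 7 with unshared barcodes, 14 with promoter peaks and 5 to 81 leaving out a mouse. Against day7C (63) there were 0 with DESeq2 (528 unadjusted), 2 with white nuclei, 0 with 1000 to 4000 counts (678 unadjusted), 18 with unshared barcodes, 18 with promoter peaks and 1 to 44 leaving out a mouse. Against day3CL (210) there were 17 with DESeq2, 21 with 1000 to 4000 counts, 136 with unshared barcodes, 69 with promoter peaks and 31 to 237 leaving out a mouse. Peaks against day3CL (855) numbered 10 with DESeq2, 352 without the filter, 14 with 1000 to 4000 counts, 264 with unshared barcodes, 578 under the block and 64 to 876 leaving out a mouse. The share with TTCNNNGAA among rises over day0RT (26.6%) was 0.0% with 1000 to 4000 counts (7 peaks), 21.2% with unshared barcodes and 14.1% to 39.2% leaving out a mouse, and over day3CL (46.1%) 52.8% without the filter, 53.7% under the block, 0.0% with 1000 to 4000 counts (3 peaks), 38.4% with unshared barcodes and 34.6% to 70.6% leaving out a mouse. With promoter peaks only, signs turned for *Blcap* (0.28) and for *Acaca* (−0.44), which was not called. Among other genes not called they turned for *Prdm16* (0.0015 with at least 2000 counts, 0.044 with unshared barcodes) and, leaving out a mouse, for *Cidea* (−0.013 to 0.23), *Lep* (−0.15 to 0.15), *Prdm16* (−0.090 to 0.14) and *Scd1* (−0.16 to 0.22). The cause was not tested, though several of these settings use fewer nuclei or mice. Nuclei of 1000 to 4000 counts, at least 2000 counts in the other contrasts, unshared barcodes and the peak contrast with day3CL were chosen after seeing the data. Over all these settings, 412 values of the 41 called named genes kept their call, 209 kept only their sign and 1 turned. Among the 12 named genes not called, 10 values of 3 genes passed the threshold. These were *Acaca* in 6 of 16 settings, *Dio2* in 3 of 15 and *Elovl6* in 1 of 16. Depth limits genes with few counts, such as *Ogdh* with 8, 5 and 8 in the day0RT mice.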

Other observations

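Further gene groups were listed after values of these data had been seen, and are given as values only. Over all genes tested, 1.64% were called in either direction. Of 24 tested genes of glycogen synthesis and breakdown 2 rose and none fell (median log2 fold change 0.04). *Pygl* had 132, 96.9 and 141 CPM in day0RT and 266, 278 and 206 CPM in day3C, which did not overlap (0.96, SE 0.15, adjusted p = 1.37e-05). *Gyg*, which also held one of the largest rising peaks, went from 96.6, 100.4 and 111 CPM to 171, 161 and 159 CPM (0.66, SE 0.14, adjusted p = 0.00256).

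Of 13 tested genes of growth hormone signalling, a pathway that acts through STAT5, 2 rose and 1 fell (median 0.14). The receptor gene *Ghr* rose by 0.45 (SE 0.11, adjusted p = 0.0201), with 467, 488 and 436 CPM in day0RT and 550.3, 622 and 729 CPM in day3C. *Socs2*, a feedback inhibitor, rose by 0.68 (SE 0.19, adjusted p = 0.0473), and *Igfbp4*, which binds insulin-like growth factors, fell by 0.52 (SE 0.12, adjusted p = 0.0140). *Cish* (0.60, SE 0.22) and *Igf1* (0.39, SE 0.12, adjusted p = 0.0614) did not pass. Neither did *Stat5a* (−0.16, adjusted p = 0.608), *Stat5b* (0.07, adjusted p = 0.863), *Jak2* (0.20, adjusted p = 0.563) or the remaining members. Of 9 tested genes of caveolae, *Cavin1* (−0.56, adjusted p = 0.0168, overlapping groups) and *Ehd2* (−0.61, adjusted p = 0.00223) fell. Without day3C mouse 1, *Igfbp4* (adjusted p = 0.204) and *Cavin1* (0.313) lost their calls, while *Ghr* (0.0118), *Socs2* (0.00877) and *Ehd2* (0.0213) kept theirs.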
